A study of Mus musculus with 9 samples.

Results

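The genes of integrin-based cell adhesion were followed in a mouse pancreatic cancer line in which Zdhhc20, encoding a palmitoyltransferase, had been targeted with CRISPR/Cas9. The set holds 38 genes chosen by symbol, and each symbol matched 1 Ensembl identifier among the 54838 identifiers measured. Of these, 17 encode integrin chains (10 alpha chains and 7 beta chains) and 21 encode intracellular proteins that gather at the cytoplasmic face of integrins. RNA-seq was made from 9 libraries of PDA530 Met, a pancreatic ductal adenocarcinoma (PDAC) line established from tumour cells that had spread to the liver of a male KPC mouse of mixed 129/SvJae/C57Bl/6 background (KPC is a genetic model of this cancer). The edited clone is E4, a Zdhhc20 knockout grown from a single cell. The unedited clone is C5 (WTCtrl), also grown from a single cell, which was nucleofected with the same guide RNAs, escaped editing and still expresses the gene. The parental line was never cloned; it is called PDA50 Met in the design text and PDA530 Met in the other labels. All cultures were untreated, were grown in DMEM with 10% foetal bovine serum, and gave 3 libraries per group, described as biological replicates. Libraries of E4 are called knockout libraries and those of C5 control libraries. Each of these groups is 1 clone, so the spread between its libraries says nothing of how independent clones of the same genotype differ, and clone and genotype cannot be told apart.

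Integrins are transmembrane receptors built from 1 alpha and 1 beta chain, and the pair decides which matrix protein is bound. Collagens, laminins and proteins with an arginine-glycine-aspartate (RGD) motif, such as fibronectin and vitronectin, are the main ligand classes. Talins and kindlins bind the beta tail and switch the receptor to its active state, the ILK-PINCH-parvin complex and the kinases FAK and Src assemble there, and vinculin, zyxin, alpha-actinins and tensins tie the site to actin filaments. Pancreatic cancers grow in a collagen-rich stroma, and epithelial carcinoma cells commonly carry both collagen-binding and laminin-binding integrins.

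Levels are given in CPM, counts scaled to a common library total with TMM factors, and library totals ran from 16525869 to 23192701 counts. A gene was called at an adjusted p under 0.05 in a fit of all 9 libraries, and a gene is said to be apart in a group where its calls against the other two groups had 1 direction. Zdhhc20 itself was at 37.5, 33.9 and 42.5 CPM in the edited clone, at 123, 85.8 and 120 CPM in the unedited clone and at 75.3, 81.2 and 90.7 CPM in the parental line, so the knockout libraries were the lowest. Control replicate 2 stood apart from the other control libraries: 10 of the 33 tested adhesion genes lay over 0.5 log2 units beyond both of them, against 0 to 3 in each other library. The median SD of log2 CPM over the tested members was 0.279 in the unedited clone, 0.063 in the edited clone and 0.1 in the parental line. The share of counts from mitochondrial genes was 3.45 to 4.11% in the unedited clone, 1.58 to 2.20% in the edited clone and 1.20 to 1.62% in the parental line. Of 5 epithelial markers, Krt8, Krt18, Krt19 and Cdh1 were present in every library and Epcam was under 1 CPM in every library. Their summed level was 3874 to 4080 CPM in the edited clone, 6253 to 8417 CPM in the unedited clone and 6299 to 7745 CPM in the parental line. Krt8, Krt18, Krt19 and Cdh1 were each called lower in the edited clone in both comparisons. Epcam was called higher, 3.88-fold against the unedited clone (adjusted p 0.00393) and 2.99-fold against the parental line (adjusted p 0.0139). The leukocyte list summed to 1.0 to 5.37 CPM with Adgre1 and Cd3e at 0, the fibroblast list to 0.526 to 3.61 CPM with Dcn and Lum at 0, and the endothelial and platelet lists to at most 0.525 and 1.1 CPM. The part of the epithelial and mitochondrial differences in the results was not tested, and counts without control replicate 2 are given with the comparison of the unedited clone and the parental line. In a bulk culture, fewer cells carrying a transcript and less of it per cell cannot be told apart.

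Of the 38 genes, 33 passed the filter on low counts: 12 of the 17 integrin chains and all 21 intracellular genes. The 5 integrin chains that did not pass were Itga4, Itga7, Itga8, Itga9 and Itgb8, and each of these was under 1 CPM in every library. Against the unedited clone, 15 of the 33 tested genes were called in the edited clone, 8 higher and 7 lower; that is 45.5%, close to the 42.9% of all 13153 tested genes that were called (18.7% higher and 24.2% lower). Against the parental line, 18 were called, 9 higher and 9 lower, which is 54.5% beside 31.4% of all tested genes (13.1% higher and 18.3% lower). Called the same way against both were 12 of the 33 genes (36.4%), where 21.5% of all tested genes were apart in the edited clone, 8.19% as higher and 13.4% as lower. Higher were the collagen receptor chain Itga2, the fibronectin receptor chain Itga5, and Tln1, Fermt2, Parvb and Zyx. Lower were the beta chains Itgb3, Itgb4 and Itgb5, and Tln2, Nedd9 and Tns1. Both comparisons use the same knockout libraries, so the 12 genes are not 2 independent findings, and no test of the gene set as a whole was made. The median log2 fold change over the 33 tested genes was 0.01 against the unedited clone and 0.12 against the parental line, beside -0.02 and -0.01 over all tested genes. Calls in the set were thus split nearly evenly between higher and lower.

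**Figure D1:**
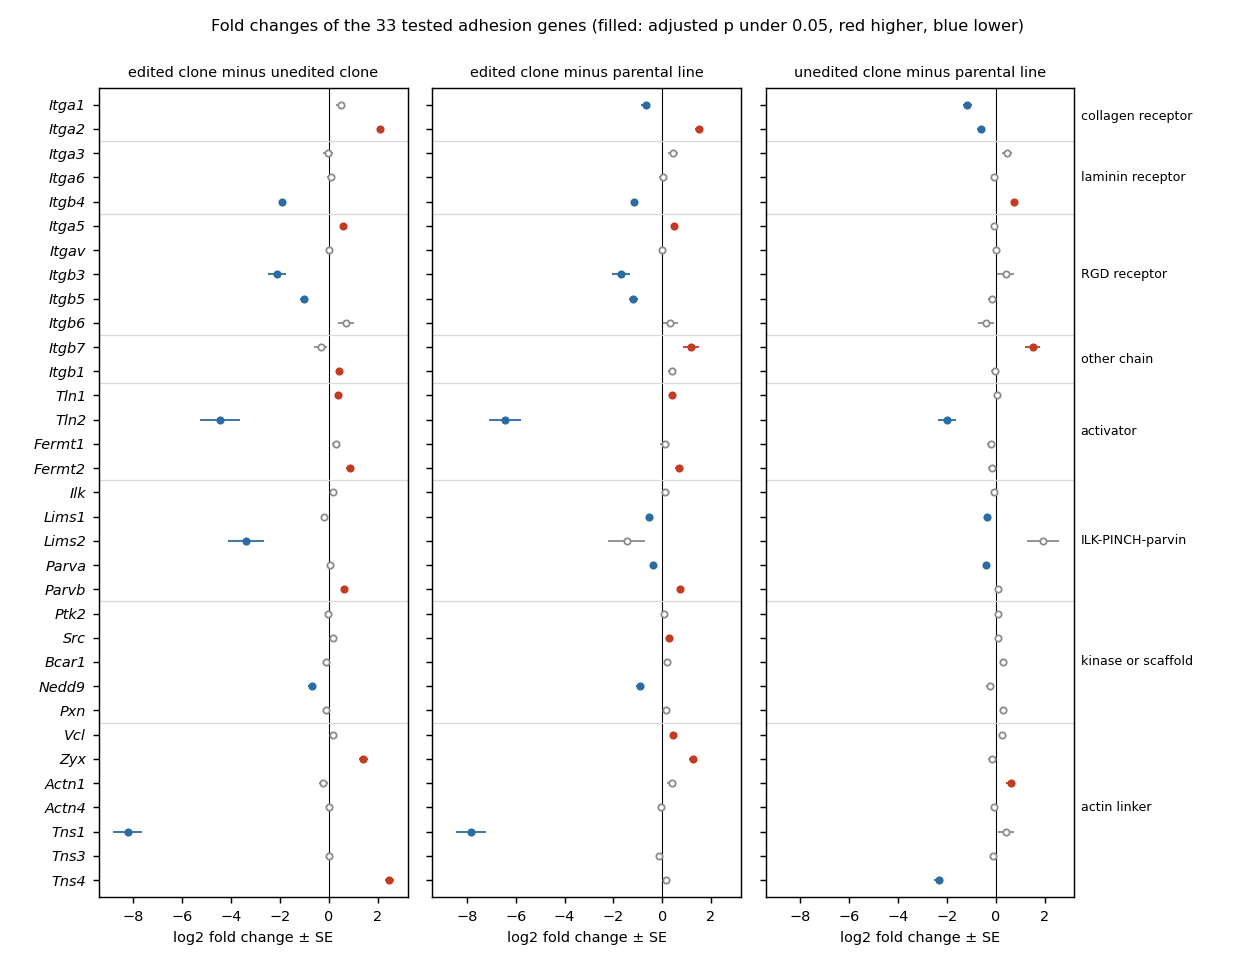
Log2 fold change (x axis) of the 33 tested adhesion genes, grouped by role, in the 3 comparisons; bars are SE from the fit, filled points are called at an adjusted p under 0.05 (red higher, blue lower) and open points are not. Tns1 lies furthest left in both knockout comparisons, at -8.24 and -7.84, and Itga2 is to the right in both, at 2.11 and 1.498; the values of Tln2 and Tns1 rest on 1 and 7 knockout counts.

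The promoters of 3 genes are shown, those of the integrin chain (Itga2) and the intracellular gene (Zyx) with the largest rise among the genes called higher in both knockout comparisons, and that of the gene with the largest fall in both (Tns1). Each is the 250 bases before the transcript start in RefSeq on build GRCm38.p6, written 5′ to 3′ on the strand of the gene. Capitals mark matches on either strand to the GC box (GGGCGG), which Sp family factors bind, and to the letters of AP-1 (TGANTCA), and these could overlap. The letters of TEAD factors (GGAATG) were searched too and are not in these promoters. The Itga2 promoter, at chr13:114932101-114932350 on the minus strand, held none of these motifs, that of Zyx, at chr6:42349578-42349827 on the plus strand, held 1 AP-1 match and 2 GC boxes, and that of Tns1, at chr1:74124549-74124798 on the minus strand, held 3 GC boxes.
Itga2: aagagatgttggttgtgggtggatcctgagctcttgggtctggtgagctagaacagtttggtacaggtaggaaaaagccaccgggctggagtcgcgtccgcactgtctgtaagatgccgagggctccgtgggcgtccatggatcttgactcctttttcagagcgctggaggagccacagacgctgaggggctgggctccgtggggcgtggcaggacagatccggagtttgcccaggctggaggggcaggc
Zyx: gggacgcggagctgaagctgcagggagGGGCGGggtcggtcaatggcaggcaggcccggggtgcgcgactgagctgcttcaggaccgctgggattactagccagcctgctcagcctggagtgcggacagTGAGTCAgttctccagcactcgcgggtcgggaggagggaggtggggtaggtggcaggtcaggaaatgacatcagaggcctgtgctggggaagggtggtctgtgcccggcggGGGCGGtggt
Tns1: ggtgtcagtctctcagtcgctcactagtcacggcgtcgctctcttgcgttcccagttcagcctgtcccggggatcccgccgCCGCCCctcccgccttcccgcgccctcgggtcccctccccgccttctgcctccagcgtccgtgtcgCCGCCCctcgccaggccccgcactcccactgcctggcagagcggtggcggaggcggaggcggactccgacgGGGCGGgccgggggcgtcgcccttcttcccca
The Tns1 promoter had 30 CpG dinucleotides, that of Zyx 15 and that of Itga2 12, where the median of all 32851 RefSeq promoters was 6 and the quartiles were 2 and 16. Tns1 thus has a CpG-rich promoter, and the other 2 lie between the median and the upper quartile. The table held 34 promoters of 28 of the 38 genes, some with more than 1 start: AP-1 letters were in 2 of these promoters (5.88%), TEAD letters in 3 (8.82%) and a GC box in 21 (61.8%), beside 6.75%, 12.6% and 32.7% of all promoters of the same length. Matches are of letters only, and gene-level counts do not show which start site was in use.

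Of the collagen receptor chains, Itga2, which pairs with beta 1 to make a collagen receptor, rose to the highest level of any group in the edited clone. In the edited clone, Itga2 (ENSMUSG00000015533, chromosome 13 from 114833081 to 114932100) reached 545, 465 and 515 CPM. It was at 96.4, 143 and 114 CPM in the unedited clone and at 197, 187 and 156 CPM in the parental line. Every knockout library was above every other library, and every control library was below every parental one. Itga2 was 4.32-fold higher than in the unedited clone (log2 fold change 2.11, adjusted p 1.37e-05, SE 0.15) and 2.82-fold higher than in the parental line (1.498, adjusted p 0.00012, SE 0.15). Itga1, the other collagen-binding chain of the set, lies 20995 bases away on the same chromosome and was at 50.6, 57.5 and 47.8 CPM in the edited clone, 45.5, 24.7 and 41.1 CPM in the unedited clone and 81.6, 85.5 and 82.8 CPM in the parental line. It was highest in the parental line, without overlap, and its knockout libraries lay between both other groups. Itga1 was lower in the edited clone than in the parental line (log2 fold change -0.68, adjusted p 0.0213, SE 0.19), and this call was lost without knockout replicate 1 or 3 or without any 1 of the parental replicates (log2 fold changes -0.69 to -0.62 in these fits, adjusted p over all alternatives 3.01e-05 to 0.0809). Against the unedited clone the Itga1 difference was 0.48 (adjusted p 0.0628, SE 0.19), which was called without control replicate 1 (0.66) or 2 (0.27), without a filter (0.497) and by DESeq2 (0.49). Both neighbouring genes were thus lowest in the unedited clone, while in the edited clone Itga1 was below and Itga2 above the parental line; no test of that difference between the genes was made. The 542 tested genes of chromosome 13 had a median log2 fold change of 0.33 against the unedited clone and 0.12 against the parental line; its part in the Itga2 difference was not tested.

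Of the laminin receptor chains, Itgb4 fell in the edited clone while its partner Itga6 did not pass the test. Itgb4 (ENSMUSG00000020758, chromosome 11 from 115974709 to 116008412) encodes the long-tailed beta chain that anchors hemidesmosomes to keratin filaments. Its level was 25.5, 27.9 and 22.9 CPM in the edited clone, 100.5, 84.1 and 103 CPM in the unedited clone and 54.4, 57.8 and 60.7 CPM in the parental line. No library of any group overlapped with another group, and the order was control, parental, knockout. Itgb4 was 3.76-fold lower than in the unedited clone (log2 fold change -1.91, adjusted p 3.98e-06, SE 0.11) and 2.26-fold lower than in the parental line (-1.18, adjusted p 7.95e-05, SE 0.11). It was also higher in the unedited clone than in the parental line, by 0.74 (adjusted p 0.00158, SE 0.10). Itga6, which pairs with beta 4 in hemidesmosomes and with beta 1 elsewhere, was at 388, 316 and 409 CPM, 373, 280 and 405 CPM, and 353, 370 and 378 CPM in the knockout, control and parental libraries, with groups that overlapped. Its log2 fold changes were 0.07 against the unedited clone and 0.02 against the parental line, each with an SE of 0.14. Itga3, whose product pairs with beta 1 to bind laminins, ranged from 397 to 491 CPM in the edited clone, 340 to 643 CPM in the unedited clone and 312 to 360 CPM in the parental line. It was not called in any comparison, although its difference of 0.44 from the parental line (adjusted p 0.13, SE 0.20) was called without control replicate 2 (0.44) or 3 (0.44) or with both groups fitted alone (0.44), and that of 0.46 between the unedited clone and the parental line without control replicate 3 (0.64).

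Itga7, a laminin receptor chain best known from muscle, did not pass the filter but differed in its few counts. It had 0 counts in each knockout library, 9, 3 and 6 counts in the control libraries and 7, 10 and 10 in the parental ones. Set against a floor of 3 counts over the group, Itga7 was 5.67-fold lower than in the unedited clone and 9.14-fold lower than in the parental line; the 95% counting limits of the ratios put it at least 4.16-fold and at least 6.94-fold lower. Without a filter it was called in both comparisons (adjusted p 0.00245 and 0.000691), as it was in the fits without 1 library in which it passed the filter. Every library holding Itga7 counts was below 0.6 CPM.

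Among the receptors of RGD ligands, the beta chains Itgb3 and Itgb5 fell in the edited clone, their common partner Itgav stayed at about 250 CPM, and Itga5 rose. Itgb3 (ENSMUSG00000020689, chromosome 11 from 104608000 to 104670476), the beta chain of a vitronectin receptor, measured 14, 16 and 15.2 CPM in the edited clone. It was at 66.9, 27.8 and 99.8 CPM in the unedited clone, the lowest in replicate 2, and at 43.0, 47.1 and 57.1 CPM in the parental line. The knockout libraries did not overlap with the others, and the control libraries spread on both sides of the parental ones. Itgb3 was 4.31-fold lower than in the unedited clone (log2 fold change -2.11, adjusted p 0.0017, SE 0.37) and 3.26-fold lower than in the parental line (-1.70, adjusted p 0.00743, SE 0.37). Itgb5 (ENSMUSG00000022817, chromosome 16 from 33829665 to 33949338), which also pairs with alpha V, measured 36.4, 35.2 and 33.5 CPM in the edited clone, 74.9, 50.3 and 88.6 CPM in the unedited clone and 76.8, 82.5 and 79.5 CPM in the parental line. Its control libraries again reached below the parental ones, and the knockout libraries were below both. Itgb5 was 2.03-fold lower than in the unedited clone (-1.02, adjusted p 0.00124, SE 0.17) and 2.27-fold lower than in the parental line (-1.18, adjusted p 0.000921, SE 0.17). On chromosome 16, the 403 tested genes had median log2 fold changes of -0.35 and -0.29 in these comparisons; their part in the Itgb5 difference was not tested.

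Itgav, the alpha chain of the vitronectin receptors, had means of 250 ± 9.34 CPM in the edited clone, 250 ± 29.0 CPM in the unedited clone and 251 ± 17.1 CPM in the parental line (SD, n = 3). Its log2 fold changes were 0.00 and -0.01 with an SE of 0.09, so the fall of Itgb3 and Itgb5 was not accompanied by a call of their partner chain. Itga5, the alpha chain of the fibronectin receptor, was at 44.0, 42.8 and 45.8 CPM in the edited clone. In the unedited clone it was at 28.8, 28.1 and 32.3 CPM and in the parental line at 34.8, 30.7 and 29.2 CPM, all below the knockout libraries. Itga5 was higher by 0.57 on the log2 scale (adjusted p 0.00113, SE 0.09) against the unedited clone and by 0.48 (adjusted p 0.00409, SE 0.09) against the parental line. Itgb6, the beta chain of an epithelial receptor that activates latent TGF-beta, was low, at 1.26 to 4.17 CPM over the 9 libraries, and was not called in any comparison. Itgb8 had 5 counts in each group of 3 libraries and Itga8 had 0 counts in each library, so neither could be compared at this depth.

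Itgb1, the common partner of most alpha chains, was the most abundant of the 38 genes per unit of exon length. Its level was 1402, 1379 and 1426 CPM in the edited clone, 968, 1342 and 810 CPM in the unedited clone and 1136, 1062 and 1018 CPM in the parental line. The knockout libraries were above all others, and control replicate 2 came closest to them. Itgb1 was called higher than in the unedited clone (log2 fold change 0.43, adjusted p 0.0464, SE 0.15), but the call was lost when any 1 library other than control replicate 2 was left out or both groups were fitted alone (0.28 to 0.46, adjusted p over all alternatives 0.000218 to 0.132). Against the parental line the difference of 0.39 (adjusted p 0.0836, SE 0.15) was not called, and it was without control replicate 2 (0.39) or 3 (0.39), without a filter (0.40) or with both groups fitted alone (0.39). Itgb7, which leukocytes use with alpha 4 or alpha E, was at 0.977, 1.17 and 0.876 CPM in the edited clone and 1.27, 1.07 and 1.47 CPM in the unedited clone, above the 0.337, 0.53 and 0.471 CPM of the parental line. It was called higher than in the parental line in the edited clone (1.18, adjusted p 0.0187, SE 0.32), a call lost without a filter and without knockout replicate 1 or 2 or parental replicate 1 or 3 (1.0 to 1.22, adjusted p over all alternatives 0.0138 to 0.0765), and in the unedited clone (1.51, adjusted p 0.00826, SE 0.31). Itga4 had 0 counts in every library and Itga9 had at most 1 count per library.

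**Figure D2:**
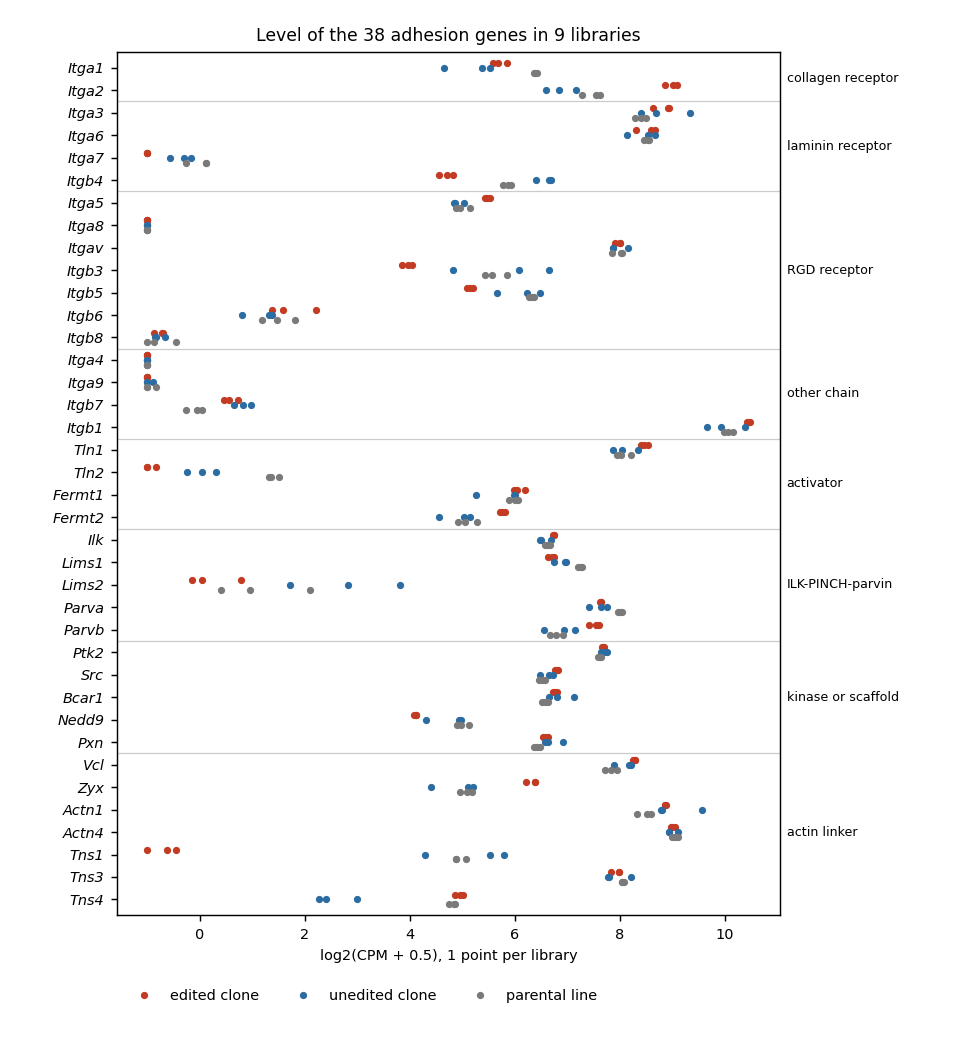
Level of each of the 38 genes as log2(CPM + 0.5) (x axis), 1 point per library, for the edited clone (red), the unedited clone (blue) and the parental line (grey). Itga2 and Zyx have their red points above all others, Itgb3, Itgb4, Itgb5 and Tns1 below all others, and Itga4 and Itga8 sit at the value of 0 counts in every library.

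Levels of different genes were compared per kb of exon, since a longer transcript gives more counts. The length used was that of all annotated exons of a gene merged, which can exceed that of the transcripts in use. Rankings and shares between genes depend on it. Summed over the 10 alpha chains, the level was 227 ± 20.4 CPM per kb in the edited clone, 168 ± 21 in the unedited clone and 159 ± 7.91 in the parental line (SD, n = 3). Itga2 made up 31.8, 32.0 and 30.4% of that sum in the knockout libraries, 8.62, 10.4 and 10.3% in the control libraries and 16.7, 16.2 and 14.5% in the parental ones. With 71.3 ± 5.68 CPM per kb, Itga2 was close to Itga3 in the edited clone (80.0 ± 9.02) but below it in every library. In the unedited clone (16.5 ± 3.29) Itga2 ranked below Itga3, Itga6 and Itgav. In the parental line the order was Itga3 (59.1 ± 4.18), Itga6 (40.6 ± 1.42), Itga2 (25.3 ± 3.01) and Itgav (23.4 ± 1.596). The last 2 were close, with Itga2 above Itgav in every parental library. Shares add up to the whole, so a gain of Itga2 lowers the shares of the other chains by construction. Summed over the beta chains the level was 361 ± 4.97 CPM per kb in the edited clone, 300.2 ± 54.1 in the unedited clone and 302 ± 12.4 in the parental line, and Itgb1 was 95.3 ± 0.294%, 84.1 ± 6.85% and 86.9 ± 1.23% of it. The beta chains besides Itgb1 summed to 16.9, 17.6 and 15.96 CPM per kb in the knockout libraries, 47.5, 31.5 and 57.3 in the control libraries and 37.1, 39.9 and 41.3 in the parental ones. Their sum in every knockout library was thus below that in each of the other 6, and Itgb5 held the largest share of it in each library. These levels and shares are a description without a test.

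**Figure D3:**
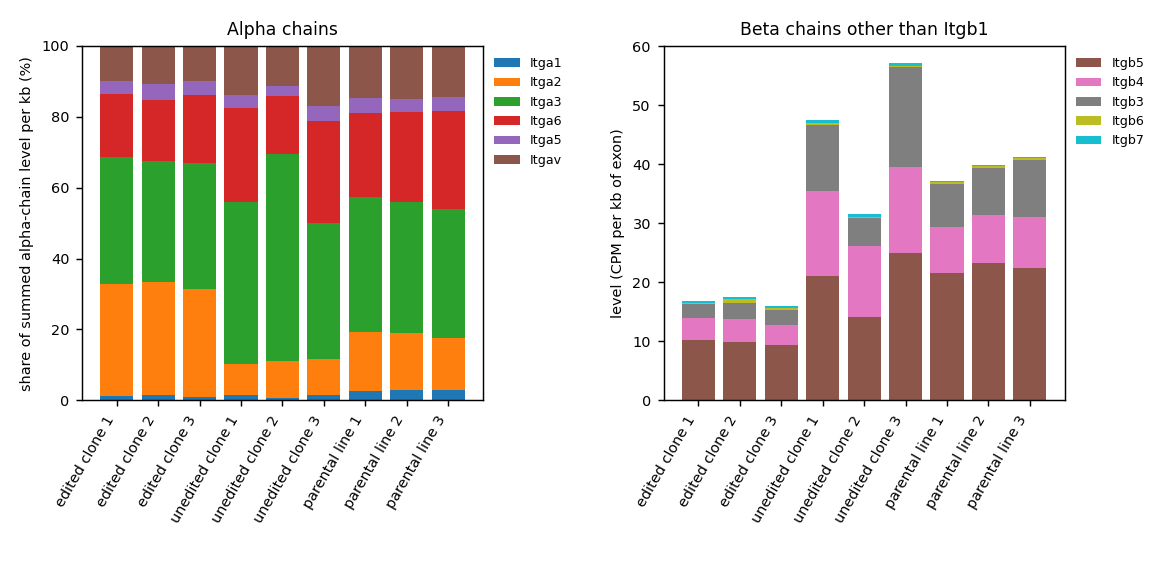
Left, share of each alpha chain in the summed alpha-chain level per kb of exon (y axis, percent) in each of the 9 libraries; right, level of the beta chains other than Itgb1 (y axis, CPM per kb of exon), stacked. The orange Itga2 band covers 30.4 to 32.0% in the knockout libraries, and the right-hand bars of the edited clone, 15.96 to 17.6, are the shortest.

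Of the 4 activators of integrins, the ubiquitous talin and kindlin genes Tln1 and Fermt2 rose in the edited clone and the second talin gene, Tln2, fell almost to 0. Tln1, the talin that links beta tails to actin in most cells, was at 369, 351 and 338 CPM in the edited clone, 235, 326 and 264 CPM in the unedited clone and 296, 260 and 246 CPM in the parental line. The knockout libraries were above all others, with control replicate 2 nearest. Tln1 was higher by 0.36 (adjusted p 0.0374, SE 0.12) than in the unedited clone and by 0.40 (adjusted p 0.0324, SE 0.12) than in the parental line. The first call was lost without any 1 knockout replicate or control replicate 1 or 3 or with both groups fitted alone (0.26 to 0.40, adjusted p over all alternatives 0.00163 to 0.12), and the second without any 1 knockout replicate or parental replicate 2 or 3 (0.34 to 0.43). Tln2 (ENSMUSG00000052698, chromosome 9 from 67217087 to 67559703) had 0, 0 and 1 count in the knockout libraries, 8, 9 and 14 in the control libraries and 49, 35 and 34 in the parental ones. No groups overlapped, and the parental line held the most. Tln2 was lower by 29.3-fold than in the unedited clone (95% counting interval 4.89 to 1195) and by 120-fold than in the parental line (21.1 to 4772), and both differences were called (adjusted p 0.00121 and 0.000116). The fitted log2 fold changes of Tln2, -4.45 and -6.44, were -6.36 and -8.35 without knockout replicate 3, the library with the 1 count; with the group at 0 these are no bounds, and both calls held (adjusted p 0.00309 and 0.000896). The 748 tested genes of chromosome 9 had -0.53 as their median log2 fold change in each of these comparisons, and its part in the Tln2 difference was not tested. Per kb of exon, Tln1 (27.3 ± 2.62 CPM per kb) was far above Tln2 (0.117 ± 0.0105) already in the parental line.

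Fermt2, encoding kindlin-2, was at 55.7, 54.0 and 52.1 CPM in the edited clone, 22.9, 34.9 and 32.3 CPM in the unedited clone and 38.2, 32.8 and 29.8 CPM in the parental line. Its knockout libraries lay above the other 6, which overlapped with each other. Fermt2 was 1.80-fold higher than in the unedited clone (log2 fold change 0.85, adjusted p 0.00185, SE 0.15) and 1.603-fold higher than in the parental line (0.68, adjusted p 0.00834, SE 0.15). On chromosome 14, which holds Fermt2, the 437 tested genes had median log2 fold changes of 0.19 and 0.21 in these comparisons, with 88 genes apart as higher and 25 as lower in the edited clone; their part in the Fermt2 difference was not tested. Fermt1, encoding kindlin-1 of epithelial cells, was at 63.0 to 73.2 CPM in the edited clone, 37.7 to 63.7 CPM in the unedited clone and 58.9 to 66.0 CPM in the parental line and was not called. Its log2 fold change was 0.29 (adjusted p 0.2, SE 0.18) against the unedited clone and 0.10 (adjusted p 0.706, SE 0.17) against the parental line.

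In the ILK-PINCH-parvin complex, Parvb was the gene apart in the edited clone, and the scaffold Ilk was not called in any comparison. Parvb, encoding beta-parvin, was at 195, 171 and 187 CPM in the edited clone, 94.0, 122 and 141 CPM in the unedited clone and 121, 109 and 102 CPM in the parental line. Its knockout libraries lay above the other 6. Parvb was higher by 0.63 (adjusted p 0.00529, SE 0.14) and by 0.735 (adjusted p 0.00362, SE 0.14) than in the unedited clone and the parental line. Parva, encoding alpha-parvin, and Lims1, encoding PINCH1, were instead highest in the parental line, without overlap. Parva was at 251 to 264 CPM there, beside 197 to 200.2 CPM in the edited clone and 169 to 215 CPM in the unedited clone, and Lims1 at 147 to 154 CPM beside 98.6 to 107 and 107 to 126 CPM. Both were called lower than in the parental line in the edited clone (Parva -0.37, adjusted p 0.0118; Lims1 -0.55, adjusted p 0.000982) and in the unedited clone (Parva -0.40, adjusted p 0.0122; Lims1 -0.35, adjusted p 0.0145), the latter calls being lost with both groups fitted alone (adjusted p 0.0546 and 0.0518). Lims1 was not called between the clones (-0.20, adjusted p 0.0709), except without control replicate 1 (-0.27).

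Lims2, encoding PINCH2, was uneven within the groups. It was at 0.537, 1.22 and 0.409 CPM in the edited clone, at 6.59, 2.80 and 13.5 CPM in the unedited clone and at 1.45, 0.825 and 3.77 CPM in the parental line. Lims2 was called lower than in the unedited clone (log2 fold change -3.40, adjusted p 0.00471, SE 0.73), by a value that was -2.71 without control replicate 3. Its difference from the parental line was -1.46 (adjusted p 0.174, SE 0.77), with libraries that overlapped. Between the unedited clone and the parental line Lims2 differed by 1.93 (adjusted p 0.061, SE 0.65), and this was called by DESeq2 and without a filter (1.92 each), with the replicate block (1.92, adjusted p 0.0449), and without control replicate 2 (2.32) or parental replicate 3 (2.72). Ilk, the pseudokinase that holds the complex together, was at 106 to 108 CPM in the edited clone, 89.3 to 103 CPM in the unedited clone and 95.1 to 101 CPM in the parental line. Its log2 fold change against the unedited clone was 0.18 (adjusted p 0.075, SE 0.07), called without control replicate 2 (0.25), by DESeq2 (0.19) and when scaled by total counts (0.215). Exons of Taf10 on the opposite strand overlap 76.75% of the exon length of Ilk, and how the counting treated strand is not given in the sources used here.

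Among the kinases and scaffolds, Nedd9 fell in the edited clone, and Ptk2, encoding the focal adhesion kinase FAK, had log2 fold changes under 0.1 in size in each comparison. Nedd9, a docking protein of the p130Cas family, was at 16.9, 16.8 and 16.4 CPM in the edited clone, at 30.2, 19.3 and 30.8 CPM in the unedited clone and at 29.4, 30.9 and 34.7 CPM in the parental line. The knockout libraries were the lowest, with control replicate 2 nearest to them. Nedd9 was 1.61-fold lower than in the unedited clone (log2 fold change -0.69, adjusted p 0.00865, SE 0.17) and 1.90-fold lower than in the parental line (-0.92, adjusted p 0.00284, SE 0.17), against the positive medians of its chromosome 13 (0.33 and 0.12). Its paralog Bcar1, encoding p130Cas itself, was at 106 to 111 CPM in the edited clone, 99.8 to 139 CPM in the unedited clone and 90.9 to 99.1 CPM in the parental line and was not called. Other fits called Bcar1 against the parental line, for the edited clone without control replicate 2 or with both groups fitted alone (0.195 each) and for the unedited clone without control replicate 3 (0.40). Ptk2 was at 202 to 207 CPM, 200 to 217 CPM and 192 to 199 CPM in the knockout, control and parental libraries, with log2 fold changes of -0.03 and 0.07 for the edited clone (SE 0.06). Src was at 113, 108 and 111 CPM in the edited clone and 94.5, 90.8 and 88.3 CPM in the parental line, and was called higher by 0.28 (adjusted p 0.0223, SE 0.08). That call of Src was lost without a filter and without knockout replicate 1 or 3 or parental replicate 2 or 3 (0.26 to 0.29, adjusted p over all alternatives 0.0011 to 0.0795), and against the unedited clone (0.17, adjusted p 0.0949) it was called without control replicate 2 (0.23), by DESeq2 (0.185) and when scaled by total counts (0.21). Pxn, encoding the scaffold paxillin, was not called in any comparison, with differences of -0.13 and 0.16 for the edited clone (SE 0.10 each); the second was called with both groups fitted alone.

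Among the actin linkers, Zyx rose and Tns1 was nearly lost in the edited clone. Zyx (ENSMUSG00000029860, chromosome 6 from 42349630 to 42360213) encodes zyxin, a LIM protein that gathers on actin fibres under tension. Its level was 83.2, 83.3 and 73.9 CPM in the edited clone, 20.7, 36.2 and 34.1 CPM in the unedited clone and 36.0, 33.7 and 30.5 CPM in the parental line. The other 6 libraries overlapped with each other and lay below 40 CPM. Zyx was 2.65-fold higher than in the unedited clone (log2 fold change 1.405, adjusted p 0.000321, SE 0.18) and 2.40-fold higher than in the parental line (1.26, adjusted p 0.000893, SE 0.18). Vcl, encoding vinculin, was at 303, 314 and 314 CPM in the edited clone, 238, 288 and 297 CPM in the unedited clone and 245, 228 and 211 CPM in the parental line. It was called higher than in the parental line (0.44, adjusted p 0.00733, SE 0.10) and not than in the unedited clone (0.18, adjusted p 0.159, SE 0.10). Vcl lies on chromosome 14 as well, whose medians of 0.21 and 0.19 in these comparisons stand beside its 0.44 and 0.18, and their part was not tested. Exons of Ap3m1 on the other strand overlap 25.52% of the exon length of Vcl. The alpha-actinin genes Actn1 and Actn4, which crosslink actin, were not called in the edited clone, at 465 to 473 and 499.9 to 527 CPM; with both groups fitted alone or without control replicate 2, Actn1 was called higher than in the parental line (0.39).

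The tensins bind beta tails and actin, and the 3 in the set differed in direction. Tns1 (ENSMUSG00000055322, chromosome 1 from 73910231 to 74124449) had 3, 0 and 4 counts in the knockout libraries, which is 0.146, 0 and 0.234 CPM. It was at 45.4, 19.2 and 55.3 CPM in the unedited clone and at 28.9, 29.0 and 33.1 CPM in the parental line, so all other libraries held at least 323 counts. Over the groups, 7 counts of Tns1 in the edited clone stood against 2418 in the unedited clone, a ratio of 327 (95% counting interval 158 to 813), and 1653 in the parental line, a ratio of 240 (116 to 597). Both differences were called (adjusted p 1.52e-05 and 3.86e-05), and the fitted log2 fold changes of -8.24 and -7.84 were -8.88 and -8.48 without knockout replicate 3. Tns4, which lacks the actin-binding region of the other tensins, was at 31.8, 28.7 and 30.8 CPM in the edited clone and 28.4, 28.1 and 26.2 CPM in the parental line, but at 4.80, 7.44 and 4.30 CPM in the unedited clone. Tns4 was therefore low in the unedited clone and not particular to the edited one: it was 5.55-fold higher in the edited clone than in the unedited clone (log2 fold change 2.47, adjusted p 1.41e-05, SE 0.18), while the difference from the parental line was 0.14 (adjusted p 0.541, SE 0.16). Tns3 was at 252, 252 and 228 CPM in the edited clone, 218, 295 and 221 CPM in the unedited clone and 270, 262 and 262 CPM in the parental line, and was not called. Per kb of exon, Tns3 was 76.9% of the 4 tensins summed in the edited clone, 75.7% in the unedited clone and 69.1% in the parental line, and Tns1 was 0.0285%, 8.85% and 5.53%.

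**Figure D4:**
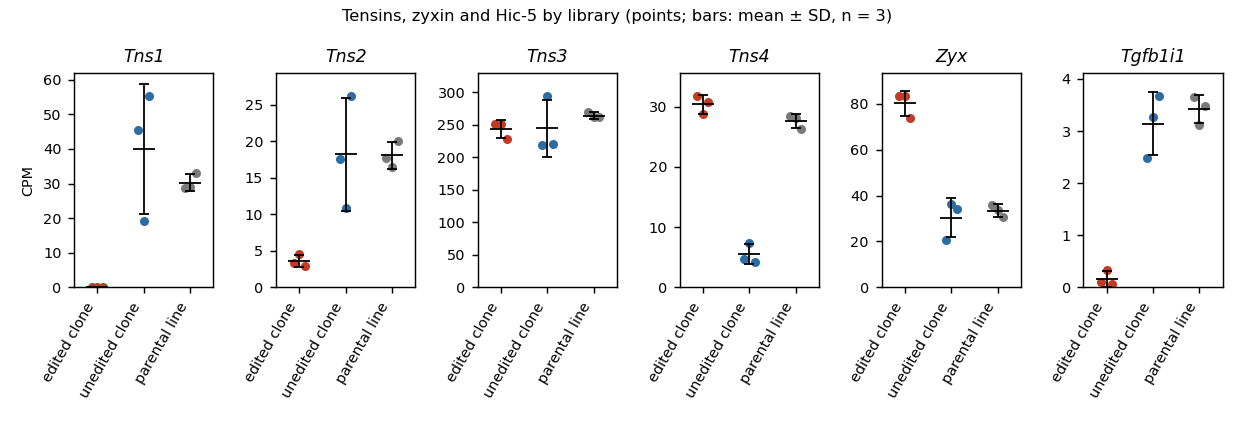
CPM (y axis, a scale for each gene, from 0) of the tensins Tns1 to Tns4, of Zyx and of Tgfb1i1 in each library (points) with mean and SD of 3 libraries (bars). Tns1 and Tgfb1i1 are near 0 in the edited clone, Tns4 is low in the unedited clone, Zyx is high in the edited clone, and Tns3 has control points that overlap with both other groups.

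Set side by side, both classes held changes in both directions. In the edited clone, 6 of the 12 tested integrin chains were called against the unedited clone (3 higher, 3 lower) and 7 against the parental line (3 higher, 4 lower). Of the 21 intracellular genes, 9 were called against the unedited clone (5 higher, 4 lower) and 11 against the parental line (6 higher, 5 lower). The shares called between the clones were thus 50.0% and 42.9%, near or equal to the 42.9% of all tested genes, and those against the parental line were 58.3% and 52.4%, beside 31.4%. The median size of the log2 fold change, sign removed, was 0.53 and 0.58 for the integrin chains and 0.23 and 0.39 for the intracellular genes in these comparisons, beside 0.35 and 0.28 for all tested genes. Integrin chains thus had the larger median change of the 2 classes; the difference was not tested. Within the integrins, of 6 tested alpha chains 2 rose and 0 fell against the unedited clone, and of 6 tested beta chains 1 rose and 3 fell. Against the parental line, 2 alpha chains rose and 1 fell, and 1 beta chain rose and 3 fell. The beta chain that rose was Itgb1 between the clones and Itgb7 against the parental line. These calls held in 7 of 16 and 10 of 15 alternative fits. Called in all were 33.3% of the tested alpha and 66.7% of the tested beta chains between the clones, and 50.0% and 66.7% against the parental line, shares of only 6 genes each. The 3 beta chains that fell in both were Itgb3, Itgb4 and Itgb5. Called in none of the 3 comparisons were 11 genes, among them the chains Itga3, Itga6, Itgav and Itgb6 and the intracellular genes Ptk2, Bcar1, Pxn, Ilk, Fermt1, Actn4 and Tns3. Over the 12 genes apart in the edited clone, 7 had a log2 fold change of 1 or more in size in both comparisons: Itga2 and Zyx higher, and Itgb3, Itgb4, Itgb5, Tln2 and Tns1 lower.

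The unedited clone differed from the parental line in 9 of the 33 tested genes (27.3%), 3 higher and 6 lower, beside 21.4% of all tested genes, 10.4% higher and 11.0% lower. Itgb4, Itgb7 and Actn1 were higher, and Itga1, Itga2, Tln2, Lims1, Parva and Tns4 were lower. A clone that kept Zdhhc20 therefore also departed from its line in these genes. Of the tested genes, 3 were apart in the unedited clone (Itgb4 higher, Itga2 and Tns4 lower), where 13.4% of all tested genes were, and 5 were apart in the parental line (Itga1, Tln2, Lims1 and Parva higher, Itgb7 lower), where 5.85% were. Itga1 was 2.24-fold lower in the unedited clone than in the parental line (log2 fold change -1.16, adjusted p 0.00308, SE 0.19) and Tns4 was 5.04-fold lower (-2.33, adjusted p 6.88e-05, SE 0.18). Itga2 was lower there (-0.615, adjusted p 0.0164, SE 0.14), a call lost without parental replicate 1 (-0.56) or 2 (-0.60) or with both groups fitted alone (-0.61). Actn1 was higher by 0.62 (adjusted p 0.0461, SE 0.19), a call lost without any 1 knockout or parental replicate, with both groups fitted alone or when scaled by total counts (0.52 to 0.66, adjusted p over all alternatives 0.00864 to 0.143). The levels of Actn1 in the unedited clone were 447, 761 and 439 CPM, and replicates 1 and 3 were also above every parental library; without replicate 2 the difference was 0.305 and was called (adjusted p 0.0223). The median log2 fold change over the 466 genes tested from chromosome 12, which holds Actn1, was 0.29 here; its part in the Actn1 difference was not tested.

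Control replicate 2 decided several of these counts. Without it, 15 genes were called between the unedited clone and the parental line, 19 between the clones and 23 between the edited clone and the parental line. Between the unedited clone and the parental line, the genes then added were Itgb3 (0.76), Tns1 (0.73), Lims2 (2.32) and Pxn (0.33) as higher and Itgb1 (-0.27) and Tns3 (-0.27) as lower in the unedited clone. Between the edited clone and the parental line they were Actn1 (0.39), Bcar1 (0.195), Itga3 (0.44) and Itgb1 (0.39), and between the clones Ilk (0.25), Itga1 (0.27) and Src (0.23), each higher in the edited clone. Itga7, which passed the filter without that library, was added as lower in both. Leaving out control replicate 1 added Pxn (0.36) and Vcl (0.36) as higher in the unedited clone than in the parental line, and DESeq2 also called both (0.29 and 0.26).

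Other genes of adhesion sites were listed beside the 38: 61 genes, of which 49 passed the filter. In the edited clone 23 of these (46.9%, beside 42.9% of all tested genes) were called against the unedited clone (11 higher, 12 lower) and 16 (32.7%, beside 31.4%) against the parental line (10 higher, 6 lower), and 11 were apart in it (22.4%, beside 21.5% of all tested genes). Those apart with a log2 fold change of 1 or more in size in both were Tgfb1i1, Tns2 and Itgb2, each lower. Tgfb1i1 encodes Hic-5, the closest relative of paxillin. It was at 0.0977, 0.334 and 0.0584 CPM in the edited clone, 2.49, 3.27 and 3.67 CPM in the unedited clone and 3.66, 3.12 and 3.47 CPM in the parental line, 18.6-fold and 20.3-fold lower (adjusted p 8.45e-05 and 0.00012). Tns2, the tensin outside the set of 38, was at 3.32, 4.62 and 2.92 CPM, 17.6, 10.8 and 26.2 CPM, and 17.8, 16.5 and 20.1 CPM, or 5.04-fold and 5.00-fold lower (adjusted p 0.000355 and 0.00058). Both followed the direction of Tns1, while their counterparts Pxn and Tns3 were not called. Itgb2, the beta chain of leukocyte integrins, was at 0.147, 0.111 and 0.409 CPM in the edited clone, at 2.49, 1.31 and 1.84 CPM in the unedited clone and at 0.674, 1.002 and 0.824 CPM in the parental line (adjusted p 0.000763 and 0.0182 for the knockout comparisons). The second call of Itgb2 was lost without knockout replicate 1 or 2 or parental replicate 2 or 3 (log2 fold change -1.90 to -1.59, adjusted p over all alternatives 0.00786 to 0.0792), and its log2 fold changes of -3.08 and -1.90 were -3.79 and -2.61 without knockout replicate 3. Those of Tgfb1i1, -4.22 and -4.34, were -5.17 and -5.31 without knockout replicate 2. Of 19 actin-side adhesion proteins, 7 were called higher and 2 lower against the unedited clone, beside 18.7% and 24.2% of all tested genes, and 7 higher and 0 lower against the parental line, beside 13.1% and 18.3%.

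**Figure D5:**
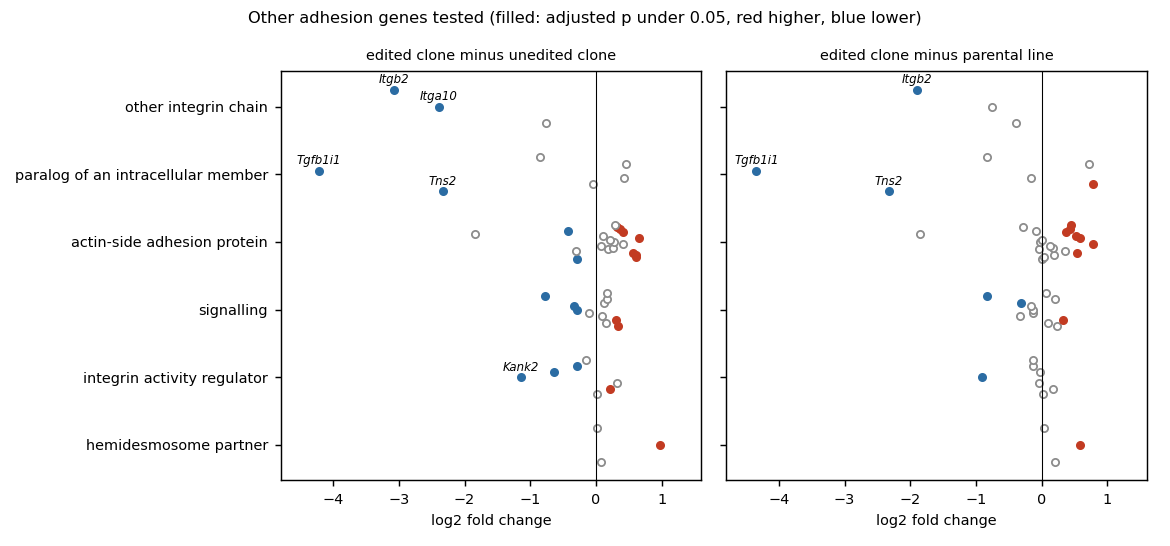
Log2 fold change (x axis) of the 49 tested genes of the 6 other adhesion lists (rows; points are spread vertically so that they can be seen) in both knockout comparisons; filled points are called (red higher, blue lower), and called genes with a size of at least 1 are named. Tgfb1i1, Tns2 and Itgb2 lie left of -1 in both panels.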

How the data were processed

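RNA-seq was measured in 9 libraries of 3 groups. The deposited values are RSEM estimated counts per gene, and were rounded to whole numbers before use. Per the submitters' processing notes, STAR 2.5.2, RSEM 1.3.0, DESeq2 1.10.1 and build GRCm38 were used; the annotation release and strand setting are not given in the sources used here. Symbols, positions and exon lengths came from GENCODE M21 on GRCm38, which matched 54809 identifiers. RSEM divides reads shared between genes by an estimate, so overlapping genes and near copies are uncertain.

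Counts were tested with edgeR 4.0.16 (quasi-likelihood, R 4.3.3) after filterByExpr (minimum count 10, minimum total 15) and TMM scaling, in 1 fit of all 9 libraries, with Benjamini-Hochberg adjustment over 13153 genes per comparison and a threshold of 0.05. The script was tested on simulated data. SE is the size of the log2 fold change before edgeR's shrinkage of low counts, over the root of the F statistic. Floors and intervals cover counting error only. All pairs of replicates differed beyond sampling noise (the lowest chi-square per gene was 4.90). Alternatives were other scalings, filters and tests (DESeq2 1.42.0), a replicate block, fits of only the groups compared, 1 library left out, and an added fold threshold. The members and lists were chosen with earlier results of these data known. Named were Zdhhc20, all 38 members, and other adhesion genes apart in the edited clone whose log2 fold change was 1 or more in size in both.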

Additional observations from a re-analysis of the deposited data

How the results depend on the processing

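Of 1571 values of single genes recomputed under alternatives, 1433 kept their sign and their side of the threshold, and 48 lost and 39 gained a call. The other 51 changed sign; they belong to 21 comparisons that were not called, and 0 of the 51 were called under the alternative. For example, without control replicate 2 the log2 fold change of Actn1 between the clones was 0.08, in place of -0.23. Leaving the fold threshold aside, the call held in each fit that tested the gene for 13 of 15 genes between the clones, 14 of 18 for the edited clone and 5 of 9 for the unedited clone against the parental line; Tln2, Lims2 and Itgb7 were too low to be tested in each fit. With a replicate block the counts were 15, 18 and 10, and 12 apart in the edited clone. Deviations of log2 CPM from the group means correlated at -0.183 to 0.275 between same-numbered libraries of different groups. Between differently numbered libraries the range was -0.385 to 0.338, so the numbers gave no sign of a pairing. In fits of only both groups, 12 genes were called between the clones in place of 15, 23 between the edited clone and the parental line in place of 18, 5 between the unedited clone and the parental line in place of 9, and 10 were apart in place of 12. With 1 library left out, the count between the unedited clone and the parental line ran from 7 to 15, the last without control replicate 2; the other counts were 14 to 19, 14 to 23 and 11 to 15 apart. Asking also for a log2 fold change of 1 or more in size left 9, 8 and 4 genes, and 7 apart. Itga7 was added without a filter and in fits without any 1 knockout or control replicate or parental replicate 1, where it passed the filter. Genes with few counts, Itgb8, Itga9, Itga4 and Itga8, could not be compared at this depth.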

Other observations

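Of the other adhesion genes, the remaining 8 that were apart in the edited clone are named here after their values were seen. Csk, the kinase that phosphorylates and holds back Src, was at 71.9, 68.8 and 70.1 CPM in the edited clone, 124.7, 110.3 and 128 CPM in the unedited clone and 124, 126.5 and 123.3 CPM in the parental line. Its log2 fold changes were -0.78 (adjusted p 5.79e-05, SE 0.07) and -0.83 (adjusted p 7.82e-05, SE 0.07). Kank2, encoding a talin-binding protein at the rim of focal adhesions, was at 60.8, 59.9 and 59.8 CPM in the edited clone and at 108.8 to 152.6 CPM in the other 6 libraries, with log2 fold changes of -1.15 (adjusted p 3.12e-05, SE 0.10) and -0.90 (adjusted p 0.000179, SE 0.10). Flna, encoding the actin crosslinker filamin A, was at 2222, 2224 and 2212 CPM in the edited clone and at 1317 to 1734 CPM elsewhere, with log2 fold changes of 0.56 (adjusted p 0.00246, SE 0.10) and 0.54 (adjusted p 0.00446, SE 0.10). Dst, encoding dystonin, was at 497, 356 and 432 CPM in the edited clone, 169, 199 and 288 CPM in the unedited clone and 315.5, 278 and 262 CPM in the parental line. An epithelial form of dystonin ties hemidesmosomes to keratin filaments, and gene-level counts do not tell its forms apart. Its log2 fold changes were 0.97 (adjusted p 0.00317) and 0.59 (adjusted p 0.042). The latter was not called with a filter at a mean of at least 5 CPM, with the replicate block, or without knockout replicate 1 or 3 or any 1 parental replicate (0.47 to 0.67, adjusted p over all alternatives 0.00128 to 0.151). Pdlim7 (0.66 and 0.58), Tes (0.42 and 0.37) and Palld (0.37 and 0.44), encoding actin-associated proteins, and Arhgef7 (0.30 and 0.33), encoding the exchange factor beta-PIX, were also called higher in both. Both Arhgef7 calls were lost without knockout replicate 1 or 3, the first also without control replicate 1 and in the fit of both groups only, and the second also without any 1 parental replicate (0.23 to 0.35).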
